A study of Mus musculus with 7 samples.

Results

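The genes described here encode the proteasome, the large protease that degrades proteins tagged with ubiquitin. They were taken as all mouse symbols that begin with Psma, Psmb, Psmc or Psmd followed by a number, with a mean estimated count of at least 10 over the libraries. That gave 38 of the 22248 genes in the deposited table. Of these, 17 belong to the core particle (Psma and Psmb names) and 20 to the regulatory particle (Psmc and Psmd names). The remaining gene, Psmc3ip, matches the pattern by name only. It encodes a cofactor of recombination in meiosis, is no proteasome subunit and is given apart. Another 2 pattern matches lay just below the minimum, Psma8 with a mean of 9.72 counts and Psmb11 with 9.14, and were left out. They encode a testis and a thymus form of core subunits. The lowest members inside it were Psmb9 with 71.7, Psmc3ip with 97.5 and Psmb8 with 198. All 38 members passed the low-count filter of the test, and 14654 genes were tested in all.

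Messenger RNA had been sequenced from hippocampal synaptoneurosomes, fragments of nerve endings with attached postsynaptic pieces. The mice were female, of strain C57Bl/6J and labelled WT. The 4 treated libraries (replicates B, D, E and F) came from mice given AM6545, an antagonist of the cannabinoid receptor CB1 that enters the brain poorly, and the 3 control libraries (replicates B, D and E) from mice given vehicle. The series title calls the administration sub-chronic. The labels gave no age, dose or duration, nor how many mice made up a library. Nothing in them says that the libraries came from separate animals, so p-values here measure the spread between these libraries.

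The core particle is a barrel of stacked rings. Its outer rings hold the alpha subunits (Psma genes), which gate the entrance, and its inner rings hold the beta subunits (Psmb genes), among which Psmb5, Psmb6 and Psmb7 cut the substrate. In immune cells and after interferon, Psmb8, Psmb9 and Psmb10 replace them and form the immunoproteasome. The regulatory particle caps the barrel. Its base holds a ring of ATPases (Psmc genes) that unfold the substrate, and its lid (most Psmd genes) binds it and removes ubiquitin. In neurons, proteasomes are found in dendrites and at synapses, and their activity is known to be needed for lasting synaptic plasticity.

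Library totals ran from 19174649 (vehicle replicate E) to 25894733 estimated counts (vehicle replicate B). The summed core genes took 0.172% to 0.216% of all counts and the summed regulatory genes 0.277% to 0.376%. Neuronal synaptic markers were present in every library, and all 10 of those listed were tested. Their summed level was 10396 to 10758 CPM with AM6545 and 9859 to 10125 with vehicle, so the groups did not overlap. The markers did not share a direction, with 5 above and 5 below 0. Their median log2 fold change, AM6545 over vehicle, was -0.02. The sum leaned on Snap25, with a mean of 3720.5 CPM with AM6545 and 3209.1 with vehicle. CPM are counts per 1000000, with library sizes scaled by the trimmed mean of M-values (TMM). Markers of other cells were present too. Summed oligodendrocyte markers were 17348 to 20472 CPM with AM6545 and 17035 to 23313 with vehicle, with all 8 tested. Summed astrocyte markers were 4094 to 5136 and 4279 to 5547, also with 8 of 8 tested. Choroid plexus markers ranged from 427 to 2850 over the libraries. In such mixed material, fewer cells of a type and less RNA per cell cannot be told apart.

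Proteasome mRNAs were abundant and of similar level in this fraction. To compare genes, counts were divided by annotated transcript length and scaled to 1000000 per library (TPM). The 31 subunits that are neither inducible nor chaperones had mean levels from 73.8 TPM (Psmc6) to 401 TPM (Psmc5), with a median of 206. The lowest of them stood at percentile 83.6 of all tested genes and the highest at 97.5. The ATPase Psmc5 had 401 ± 33.4 TPM (SD, n = 7, both groups together), followed by the catalytic subunits Psmb6 with 384 ± 23.5 and Psmb5 with 382 ± 32.7. These 3 levels differed by less than their SD. The third catalytic subunit, Psmb7, was at 167 ± 11.7 TPM, below Psmb5 and Psmb6 by far more than the SD. The other high levels belonged to the alpha subunits Psma3 (360 ± 16.1) and Psma7 (353 ± 17.6), which differed by less than their SD.

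The inducible subunits were far from equal, with Psmb10 at about the level of Psmc6 and Psmb8 and Psmb9 much lower. Psmb10 had 74.3 ± 10.6 TPM, Psmb8 14.8 ± 1.99 and Psmb9 4.34 ± 1.03 (SD, n = 7). The steps between them exceeded the spread over libraries, and Psmb9 stood at percentile 28.4 of the tested genes. The 3 chaperones that bear Psmd names help to assemble the base and leave it afterwards. They lay below the constitutive subunits, with Psmd5 at 41.8 ± 6.57, Psmd9 at 38.7 ± 3.65 and Psmd10 at 35.5 ± 3.83 TPM.

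**Figure D1:**
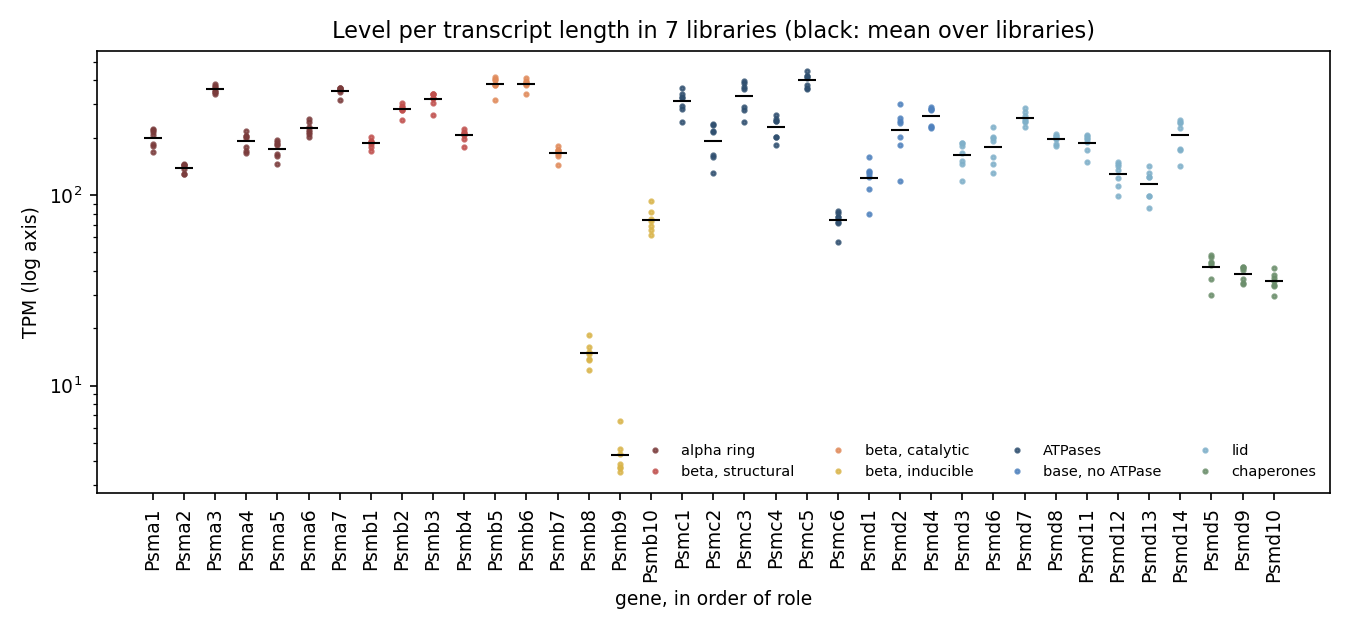
Level per transcript length (TPM, log axis) of the 17 core and 20 regulatory genes, in order of role, with 1 coloured point per library (n = 7) and a black bar for the mean. Constitutive subunits lie between 73.8 and 401 TPM on average, while the inducible Psmb9 and Psmb8 and the 3 chaperones lie lower.

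In the comparison of AM6545 with vehicle, the core genes leaned lower and the regulatory genes higher, and no member passed the test after adjustment. Log2 fold changes are AM6545 over vehicle. Of 17 core genes, 14 were below 0, with a median of -0.11 and a range from -0.47 (Psmb8) to 0.13 (Psmb9). Of 20 regulatory genes, 16 were above 0, with a median of 0.08 and a range from -0.06 (Psmd8) to 0.31 (Psmd2). Without vehicle replicate B the core median was -0.053 and the regulatory median 0.015, and without vehicle replicate E they were -0.13 and 0.22. Over all genes tested the median was 0.01 and 48.6% were below 0. By edgeR's quasi-likelihood test, 0 of 38 members had a Benjamini-Hochberg adjusted p under 0.05, and the smallest was 0.236. In all genes, 0.00682% (1 gene) passed. DESeq2 and limma-voom also called 0 members, in fits that called 205 and 118 of all genes. At an unadjusted p under 0.05, 2 members (Psmb8 and Psmb10) were lower, against 8.70% of all genes tested. In the other direction 1 member (Psmd5) was higher, against 5.86%. Groups that did not overlap, with AM6545 lower, were found for 1 member (Psmb8), against 7.19% of all genes. None of the 38 had all AM6545 values above all vehicle values, against 6.63% of all genes. By count, the 38 members thus did not exceed the background.

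**Figure D2:**
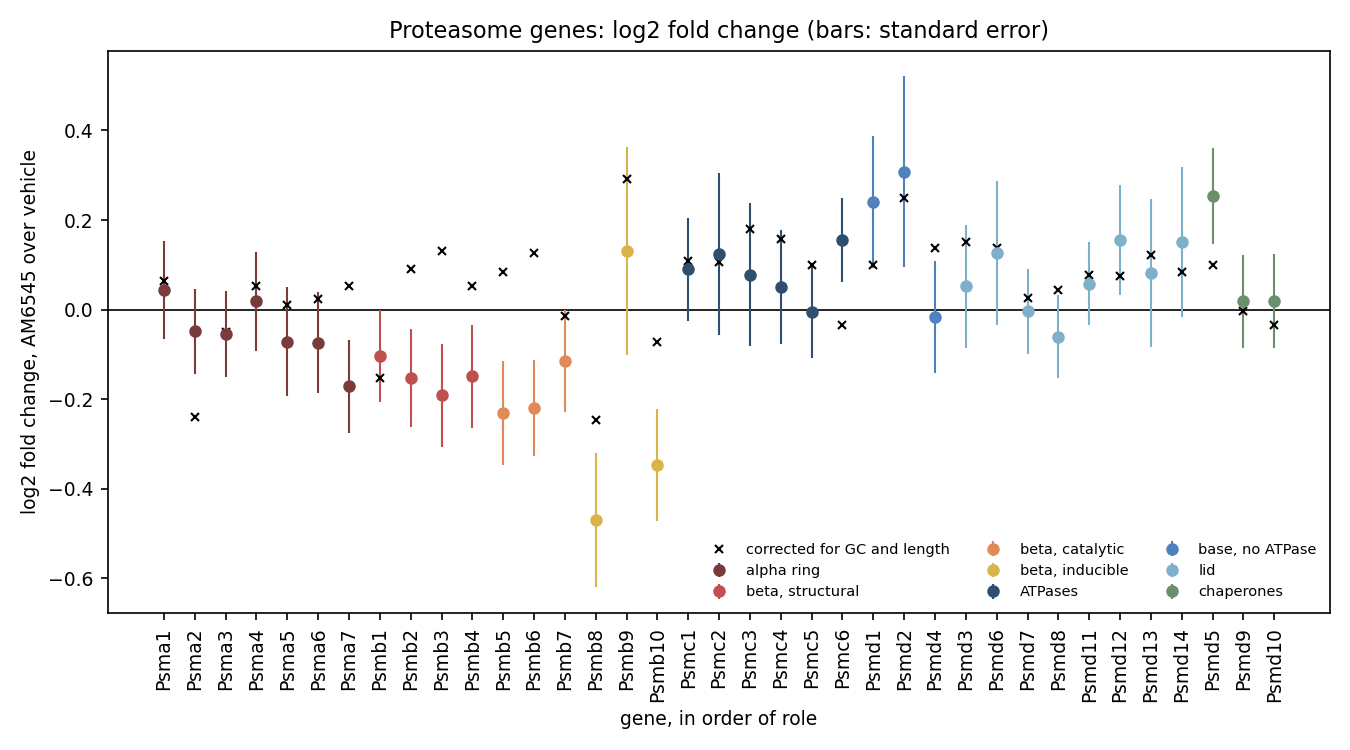
Log2 fold change of each core and regulatory gene, AM6545 (n = 4) over vehicle (n = 3), in order of role. Coloured points with bars are the estimate and its standard error, and black crosses are the estimates after correction for GC content and transcript length. Psmb8 lies lowest at -0.47 and Psmd2 highest at 0.31.

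Within the core particle the lean differed by role. Among the alpha subunits, 5 of 7 were below 0, with a median of -0.06 and none at an unadjusted p under 0.05. The lowest was Psma7 with -0.17 ± 0.10 (standard error). The 4 structural beta subunits (Psmb1 to Psmb4) were all below 0, from -0.10 to -0.19. The 3 constitutive catalytic subunits were below 0 as well, with a median of -0.22. These are descriptions, since no test of a difference between roles was made. After correction for GC content and transcript length, the medians of the alpha, structural and catalytic subunits were 0.02, 0.07 and 0.09.

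Psmb5, the chymotrypsin-like catalytic subunit, had 189, 173, 142 and 173 CPM in AM6545 replicates B, D, E and F, and 216, 176 and 203 in vehicle replicates B, D and E. AM6545 replicate E was the lowest and vehicle replicate B the highest, and replicate B of the treated group lay inside the vehicle range. The log2 fold change was -0.23 ± 0.12, with an adjusted p of 0.382 by edgeR. Psmb6, the caspase-like subunit, had 159.6, 152, 132 and 151 CPM in the AM6545 libraries and 195, 156 and 168 in the vehicle libraries. The groups overlapped only through AM6545 replicate B and vehicle replicate D. Its log2 fold change was -0.22 ± 0.11, with an adjusted p of 0.369, and -0.12 without vehicle replicate B. Psmb7, the trypsin-like subunit, had 104, 101, 83.6 and 107 CPM with AM6545 and 121, 97.9 and 102 with vehicle. Vehicle replicate B stood above all other libraries and the rest interleaved (log2 fold change -0.11 ± 0.11, adjusted p 0.651, and -0.012 without vehicle replicate B). Exons of Psmb7 overlap Nek6 on the other strand over 255 bases, and no source used here says whether counting used strand.

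Of the inducible subunits, 2 of 3 were lower and held the lowest fold changes of all members. Psmb8, which takes the place of Psmb5 in the immunoproteasome, lies on chromosome 17 at 34197721 to 34201454 (GRCm38). It had 7.61, 8.17, 6.02 and 7.21 CPM in AM6545 replicates B, D, E and F, and 10.5, 8.39 and 11.3 in vehicle replicates B, D and E. All treated libraries lay below all control libraries, though AM6545 replicate D and vehicle replicate D nearly met. The log2 fold change was -0.47 ± 0.15, with an unadjusted p of 0.00847 and an adjusted p of 0.236 (edgeR). Psmb10, the counterpart of Psmb7, lies on chromosome 8 at 105935735 to 105938444. It had 34.0, 33.1, 27.7 and 32.8 CPM with AM6545 and 47.3, 33.8 and 40.6 with vehicle. Vehicle replicates B and E stood above the treated libraries, and vehicle replicate D lay within them. The log2 fold change was -0.35 ± 0.13 (unadjusted p 0.0171, adjusted p 0.263). By limma-voom neither gene reached an unadjusted p under 0.05, with -0.23 (0.0968) for Psmb8 and -0.15 (0.161) for Psmb10. In edgeR, Psmb10 without vehicle replicate B was at -0.21, with an unadjusted p of 0.0837.

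Psmb9, the counterpart of Psmb6, did not follow the other inducible subunits in sign. It lies on chromosome 17 at 34181987 to 34187764, close to Psmb8, and had 4.41, 3.24, 2.45 and 2.53 CPM with AM6545 and 3.38, 2.50 and 2.76 with vehicle. AM6545 replicate B was the highest library, and the others interleaved. The log2 fold change was 0.13 ± 0.23 (adjusted p 0.810). It changed sign to -0.07 without AM6545 replicate B. Exons of Psmb9 overlap Tap1 on the opposite strand, with a shared stretch of 212 bases (15.7% of the transcript). Reads of that stretch cannot be told apart without strand.

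Set against its constitutive counterpart, Psmb8 amounted to 3.42%, 3.86%, 3.80% and 3.61% of the Psmb5 level per length in AM6545 replicates B, D, E and F, and to 3.98%, 3.95% and 4.41% in vehicle replicates B, D and E. The groups did not overlap, with means of 3.67% ± 0.20 (SD, n = 4) and 4.11% ± 0.258 (SD, n = 3). Psmb10 was 40.5% ± 3.05 of Psmb7 with AM6545 (36.4% to 43.0%) and 50.1% ± 4.08 with vehicle (45.7% to 53.7%), again without overlap. Psmb9 was 1.25% ± 0.282 of Psmb6 with AM6545 and 0.968% ± 0.0809 with vehicle, and the groups overlapped. Scaling between libraries does not enter these ratios, but a library's dependence on GC content and length does. After correction for it, the log2 fold changes were -0.07 for Psmb10 and -0.015 for Psmb7, and -0.25 for Psmb8 and 0.09 for Psmb5.

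Among the vehicle libraries, Psmb8 and Psmb10 went with markers of microglia, the resident macrophages of the brain, which express immunoproteasome genes. Of 10 microglia markers tested, 6 were lower at an unadjusted p under 0.05 and none higher, against 8.70% and 5.86% of all genes tested. Their median log2 fold change was -0.33. Their summed level was 915, 987, 968 and 967 CPM in AM6545 replicates B, D, E and F, and 1289, 953 and 1205 in vehicle replicates B, D and E. Vehicle replicates B and E were high for the markers, for Psmb8 and for Psmb10 alike, and vehicle replicate D was the lowest control in all 3. This was not particular to the inducible subunits, since vehicle replicate D was also the lowest control for Psmb5, Psmb6 and Psmb7. Among members without the inducible subunits and Psmc3ip, the lowest control was vehicle replicate D in 20, B in 12 and E in 2. The treated libraries did not go together for the markers, Psmb8 and Psmb10. AM6545 replicate E was the lowest for Psmb8 and Psmb10, and AM6545 replicate B was the lowest for the markers. No defining marker was at 0. The receptor genes Cx3cr1 (0.04), Csf1r (-0.04) and P2ry12 (0.07) were near 0 on the log2 fold change scale, whereas Tyrobp (-0.65) and the complement genes C1qa (-0.47), C1qb (-0.45) and C1qc (-0.46) were lower. After correction for GC content and length, the median of the markers was -0.15, with Tyrobp at -0.19 and C1qa at -0.14. The part of microglial RNA in the values of Psmb8 and Psmb10 was not tested.

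**Figure D3:**
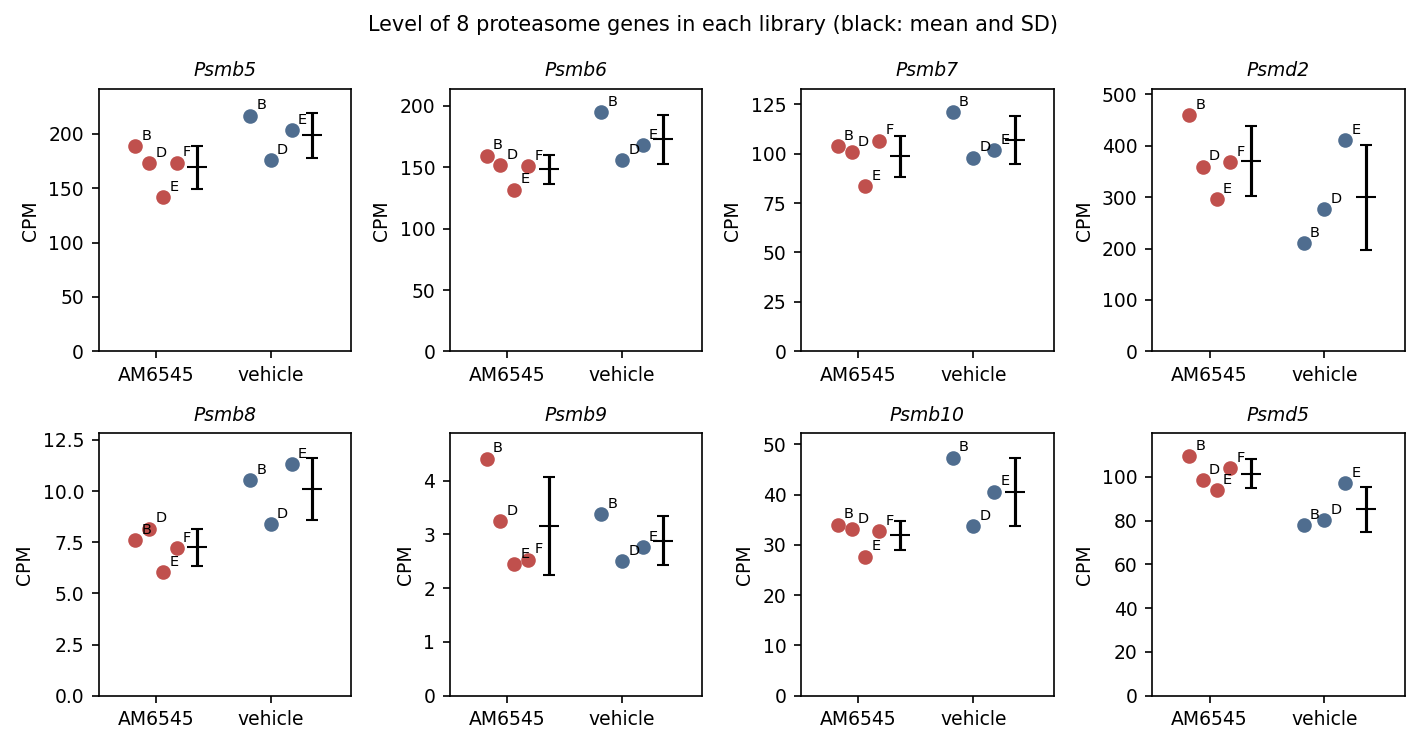
CPM of 8 proteasome genes in each library, with letters for replicates and black marks for the group mean and SD (n = 4 AM6545, n = 3 vehicle). The AM6545 points of Psmb8 lie between 6.02 and 8.17, below the vehicle points at 8.39 to 11.3, while the groups overlap in the other 7 genes.

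The core genes with the smallest p above 0, besides Psmb9, were the alpha subunits Psma1 and Psma4. Psma1 had 131, 129.5, 106 and 131 CPM with AM6545 and 118, 110.5 and 134 with vehicle. Psma4 had 123, 120.1, 98.5 and 128 CPM with AM6545 and 117, 106 and 125 with vehicle. In both genes AM6545 replicate E was the lowest library, and the others interleaved. Their log2 fold changes, 0.04 ± 0.11 and 0.02 ± 0.11, were smaller than the standard errors.

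In the regulatory particle, 5 of 6 ATPases were above 0 with a median of 0.08, and 6 of 8 lid subunits with a median of 0.07. None of either kind reached an unadjusted p under 0.05. The scaffold subunits of the base without ATPase activity, Psmd1 and Psmd2, had the highest fold changes of the particle's subunits, 0.24 and 0.31. The ubiquitin receptor Psmd4 was at -0.02.

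Psmd5, a chaperone that binds the ATPase ring during assembly and is no part of the finished particle, lies on chromosome 2 at 34849734 to 34874968. It had 109, 98.6, 93.8 and 104 CPM in AM6545 replicates B, D, E and F, and 78.1, 80.3 and 97.0 in vehicle replicates B, D and E. Vehicle replicate E lay within the treated range and the other controls below it. The log2 fold change was 0.25 ± 0.11, with an unadjusted p of 0.0341 and an adjusted p of 0.315 (edgeR). Without vehicle replicate B it was 0.20, with an unadjusted p of 0.0787. The remaining chaperones, Psmd9 and Psmd10, were both at 0.02.

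Psmc6, an ATPase, had 87.4, 91.4, 84.0 and 90.6 CPM with AM6545 and 74.2, 78.2 and 85.7 with vehicle. Only vehicle replicate E reached into the treated range, and the log2 fold change was 0.16 ± 0.09 (adjusted p 0.453). Psmd1 had 242, 190.3, 179.5 and 195 CPM with AM6545 and 140.1, 159 and 213 with vehicle (0.24 ± 0.15, adjusted p 0.463). Again vehicle replicate E was the control that overlapped the treated libraries. The value was 0.43 without that library (unadjusted p 0.00468) and 0.12 without vehicle replicate B. Psmd2, chosen here after its values were seen because its fold change was the largest, had 459, 359, 296 and 367 CPM with AM6545 and 209.9, 277 and 411 with vehicle. Its controls spanned almost the whole range, and the log2 fold change of 0.31 ± 0.21 had an adjusted p of 0.513. Without vehicle replicate E it was 0.60, the unadjusted p was 0.00276 and Psmd2 became the 1 member past the adjusted threshold, in a fit that called 944 of all genes. Without vehicle replicate B it was 0.11, with an unadjusted p of 0.557.

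The regulatory genes with the smallest p below 0 were the lid subunit Psmd8, the receptor Psmd4 and the ATPase Psmc5. Psmd8 had 146, 143, 128 and 147 CPM with AM6545 and 151, 139 and 150.1 with vehicle (-0.06 ± 0.09). Psmd4 had 191, 189, 147 and 190.5 CPM with AM6545 and 180.0, 156 and 208 with vehicle (-0.02 ± 0.13). Psmc5 had 288, 300.0, 241 and 281 CPM with AM6545 and 285, 255 and 295 with vehicle, and a log2 fold change of -0.0045 ± 0.10. AM6545 replicate E was the lowest library for all 3, and no group stood apart. Psmc3ip, the match that is no subunit, had 4.28, 3.63, 3.58 and 3.88 CPM with AM6545 and 4.75, 4.60 and 4.28 with vehicle. Its groups met at AM6545 replicate B and vehicle replicate E (-0.24 ± 0.15, adjusted p 0.465), and its exons overlap Mlx on the other strand.

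The libraries differed in a pattern that the mean over each particle shows. The mean log2 CPM of the 17 core genes was 6.36 ± 0.15 (SD, n = 4) with AM6545 and 6.49 ± 0.13 (SD, n = 3) with vehicle. For the 20 regulatory genes it was 7.20 ± 0.16 and 7.11 ± 0.18. Both pairs overlapped and differed by less than the spread between replicates. AM6545 replicate E was the lowest of the 7 libraries in 17 of 17 core genes and in 10 of 20 regulatory genes. Vehicle replicate B was the highest in 10 core genes and the lowest in 8 regulatory genes. Vehicle replicate E was the highest in 4 core and 6 regulatory genes. Without AM6545 replicate E, 12 of 17 core genes were below 0 and 19 of 20 regulatory genes above it.

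The difference between the particles within a library varied less among treated libraries than either mean. Core minus regulatory mean log2 CPM was -0.85, -0.84, -0.84 and -0.87 in AM6545 replicates B, D, E and F, and -0.38, -0.68 and -0.79 in vehicle replicates B, D and E. The treated libraries were alike and all lay below the controls, which were spread out. Vehicle replicate B, the control farthest away, also had 9.83% of its counts from mitochondrially encoded genes, against 5.07% to 6.66% in the other libraries. The part of this in the difference was not tested. The group means were -0.85 ± 0.01 (SD, n = 4) and -0.62 ± 0.21 (SD, n = 3). The median log2 fold change of core genes minus that of regulatory genes was -0.19. It was -0.068 without vehicle replicate B and -0.35 without vehicle replicate E, so its size depended on which controls were included.

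**Figure D4:**
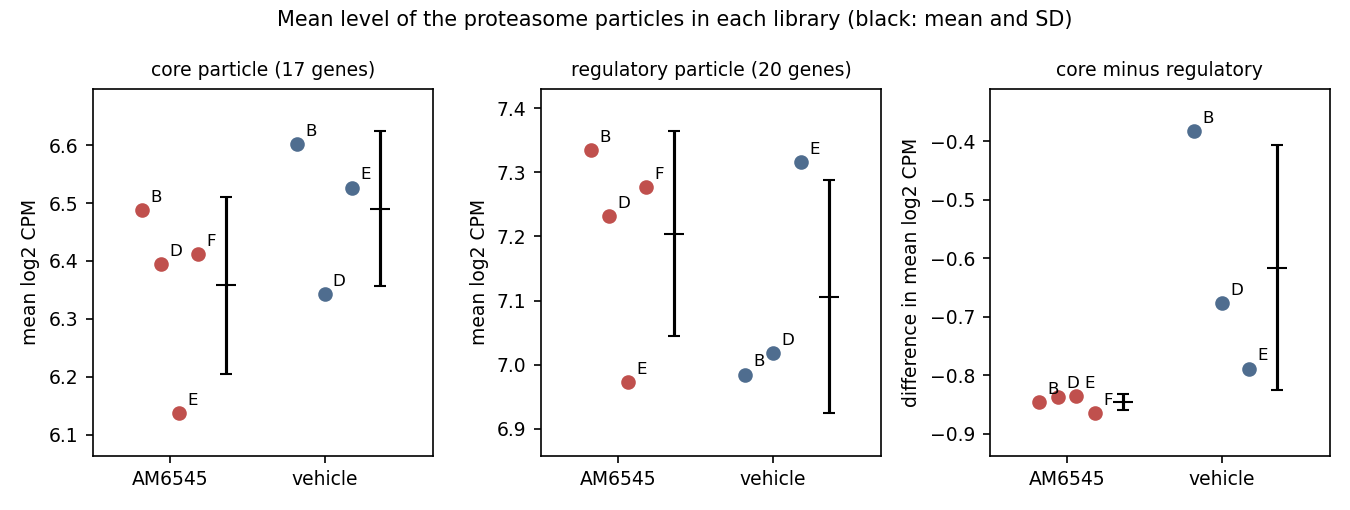
Mean log2 CPM of the core genes, of the regulatory genes, and their difference in each library, with letters for replicates and black marks for the group mean and SD. The 4 AM6545 libraries lie together at -0.84 to -0.87 for the difference, and vehicle replicate B stands apart at -0.38.

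Transcript length moved with this pattern, and within each particle GC content moved with the fold changes too. Core transcripts are short, with a median length of 1161 bases against 1634 for regulatory transcripts, while the median GC contents were close (51.0% and 49.9%). Across the 37 genes, Spearman's rho between length and log2 fold change was 0.79, and with GC content it was -0.38. Within the core genes it was 0.57 with length and -0.72 with GC content, and within the regulatory genes 0.66 and -0.56. Across 14633 genes with an annotated length it was 0.25 with length and -0.42 with GC content. These are descriptions over genes that share the same libraries. Among 1430 genes of any function with lengths near the core median, the middle log2 fold change was -0.16. Among 2584 genes near the regulatory median it was -0.05. In single libraries, the first of these gene sets minus the second was 0.15, 0.04 and -0.02 in vehicle replicates B, D and E, and -0.04 to -0.05 in the treated libraries. The controls thus came in the same order as for core minus regulatory genes.

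After a correction of each library for its dependence on GC content and length, the core median was 0.05 and the regulatory median 0.10. Then 6 of 17 core genes and 3 of 20 regulatory genes were below 0. Spearman's correlation with length over the 37 genes was 0.14, and with GC content 0.41. Within the core genes it was -0.59 with length and 0.28 with GC content, and within the regulatory genes 0.04 and 0.56. Apart from length in the regulatory genes, these within-particle values had the opposite sign before the correction. The correction thus did not remove the dependence within each particle. Core minus regulatory mean log2 CPM became -0.79, -0.77, -0.75 and -0.83 in the AM6545 libraries and -0.58, -0.72 and -0.79 in the vehicle libraries, and the groups overlapped. Psmb8 was at -0.25 (unadjusted p 0.0991) and Psmb10 at -0.07 (0.449), so neither kept its call. Psmd5 was at 0.10 (0.324). Psmb5 and Psmb6 took the opposite sign, 0.09 and 0.13. The 1 member with an unadjusted p under 0.05 was then the alpha subunit Psma2, at -0.24 (0.0354). It is the longest core transcript and was at -0.05 before. What produced the dependence on length and GC content was not tested.

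**Figure D5:**
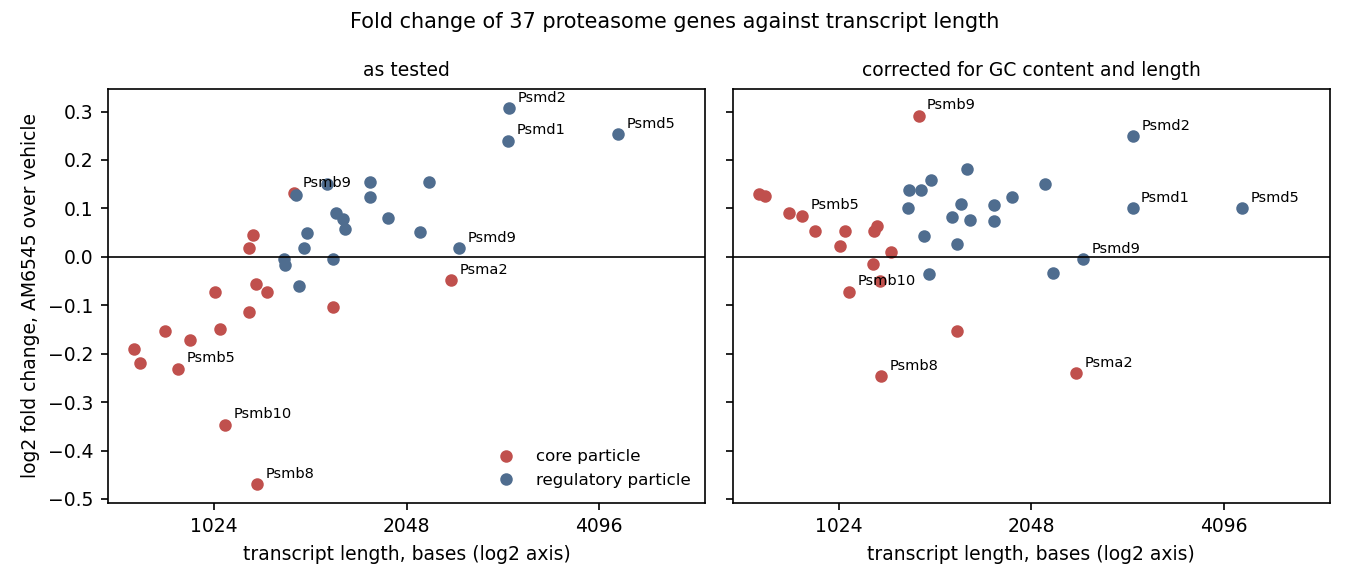
Log2 fold change (AM6545 over vehicle) of the 37 core and regulatory genes against transcript length in bases on a log2 axis, as tested (left) and after correction of each library for GC content and length (right). On the left the points climb with length (Spearman's rho 0.79). On the right rho is 0.14 over the 37 genes, but -0.59 within the core genes and 0.04 within the regulatory genes.

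At the level of transcripts, 215 annotated transcripts of the 38 genes were listed and 101 were tested. None had an adjusted p under 0.05 in edgeR (smallest 0.559), against 0.0177% of all transcripts. At an unadjusted p under 0.05, 4 were lower and 1 was higher, together 4.95% of those tested, against 8.39% of all transcripts. Each gene was carried mainly by 1 transcript, which held on average over the 7 libraries more than 50% of the counts in 38 of 38 genes and more than 80% in 27. Psmb5-201 held 99.9% of Psmb5 and Psmb7-201 practically all of Psmb7, while Psmb6-201 held 88.2% and Psmb9-204 96.1%. The split was wider for the other inducible genes. Psmb8-203 held 57.0% ± 4.39 of Psmb8 with AM6545 (SD, n = 4) and 48.4% ± 2.79 with vehicle (SD, n = 3), and Psmb10-201 held 66.2% of Psmb10 over all libraries. The smallest p belonged to Psma7-202, a minor form with 4.33% of Psma7. Its level was 4.85, 6.98, 6.54 and 6.59 CPM with AM6545 and 9.61, 8.61 and 9.57 with vehicle. These groups did not overlap (log2 fold change -0.57 ± 0.17, adjusted p 0.559). The transcript with the next smallest p was Psmd5-201, which holds 99.5% of Psmd5, at 0.27 ± 0.10. Psma3-203 (-0.30 ± 0.12) and Psmb1-201 (-0.23 ± 0.09) followed, both with overlapping groups.

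Proteasome genes are known to be induced together by the transcription factor Nfe2l1 through antioxidant response elements, and the immunoproteasome genes by interferon. RefSeq promoter windows (GRCm38.p6, 250 bases before to 50 after the start) were given for 32 of the 38 members, without Psmb1, Psmb2, Psmb7, Psmc3, Psmd3 and Psmd7. They were searched on both strands. The letters TGACNNNGC of the antioxidant response element were found in 2 of 14 core windows (Psmb5 and Psmb6) and 3 of 17 regulatory windows (Psmc6, Psmd9 and Psmd12), against 14.0% of all 27025 genes with a window. CCAAT was found in 7 of 14 and 5 of 17, against 41.1%. The interferon-stimulated letters GAAANNGAA were found in 2 of 14 and 3 of 17, against 9.76%, and TTCNNNGAA in 1 of 14 (Psmb8) and 1 of 17 (Psmd2), against 9.55%. No match of one motif overlapped a match of another in the members' windows, and a match is a description of the window only. The stretches of Psmb5 and Psmb6 are shown as the catalytic subunits with a match, and those of Psmb10 and Psmd5 as genes with an unadjusted p under 0.05. Each has 100 bases, 5′ to 3′ on the gene's strand, ends before the RefSeq start, and carries the antioxidant response letters in capitals where present. In Psmb5 and Psmb10 it also ends before an earlier GENCODE start. In Psmd5 it lies inside the GENCODE gene, in which another transcript starts further upstream. The window of Psmb8 lies downstream of its GENCODE starts and is not shown. The match lies 47 bases upstream of the RefSeq start in Psmb5 and 9 bases upstream in Psmb6, while Psmb10 and Psmd5 hold none of the 4 motifs in the stretch shown.
Psmb5 (chr14:54618023-54618122, minus strand): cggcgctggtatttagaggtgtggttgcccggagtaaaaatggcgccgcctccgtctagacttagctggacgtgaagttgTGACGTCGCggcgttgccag
Psmb6 (chr11:70525257-70525356, plus strand): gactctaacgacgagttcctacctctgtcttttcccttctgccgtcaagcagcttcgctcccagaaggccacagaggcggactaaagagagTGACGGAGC
Psmb10 (chr8:105938445-105938544, minus strand): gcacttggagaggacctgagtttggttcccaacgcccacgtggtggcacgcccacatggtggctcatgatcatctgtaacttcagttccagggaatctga
Psmd5 (chr2:34870963-34871062, minus strand): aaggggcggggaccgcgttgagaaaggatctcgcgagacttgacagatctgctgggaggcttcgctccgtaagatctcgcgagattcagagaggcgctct

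The other genes of the pathway were read from the same fit, and none of those listed had an adjusted p under 0.05. Of all genes tested, 8.70% were lower and 5.86% higher at an unadjusted p under 0.05, and 48.6% were below 0. Groups did not overlap in 7.19% with AM6545 lower and in 6.63% with AM6545 higher. These shares apply to each short list below, in which 1 or 2 genes make a large percentage. Among proteasome assembly factors, which help to build the core, 5 of 6 were below 0 with a median of -0.18, and 2 had an unadjusted p under 0.05. The lowest was Psmg4, a partner in alpha ring assembly, at -0.57 ± 0.19, with 5.93, 4.35, 4.28 and 5.18 CPM with AM6545 and 9.46, 6.05 and 6.39 with vehicle. These groups did not overlap. After correction for GC content and length the median of the assembly factors was 0.0027 and Psmg4 was at -0.058, and without vehicle replicate B the median was -0.054. Of 5 activators and inhibitors none had an unadjusted p under 0.05, and the smallest p was that of Psme2, a subunit of the interferon-inducible activator, at -0.23 ± 0.12 (0.025 after the correction).

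Subunits and enzymes bound to the proteasome without Psm names gave 1 lower and 1 higher gene of 6. Sem1, a very small lid subunit, had 35.4, 35.6, 37.5 and 38.2 CPM with AM6545 and 58.2, 44.4 and 41.6 with vehicle (-0.39 ± 0.12, and -0.48 after the correction), and the groups did not overlap. Ube3c, a ligase that extends ubiquitin chains at the proteasome, was at 0.30 ± 0.10. Among genes that encode ubiquitin, Rps27a (-0.41 ± 0.13) was lower at an unadjusted p under 0.05, with groups that did not overlap, and Ubb was at -0.09 ± 0.14. After the correction Rps27a was at -0.11 and Ube3c at 0.21.

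Of 5 ubiquitin shuttle factors none reached that limit, and the smallest p was that of Ubqln1 (0.31 ± 0.15). For the unfoldase Vcp and its cofactors, 1 of 7 was lower (Ubxn1, -0.22 ± 0.09) and none higher. Of 6 transcription factors of proteasome genes and their processing enzymes, 1 was higher. This was Ngly1, the glycanase that processes Nfe2l1, with 43.8, 38.2, 34.3 and 35.5 CPM with AM6545 and 24.4, 28.8 and 32.8 with vehicle (0.41 ± 0.13). These groups did not overlap. After the correction Ngly1 was at 0.21 and Ubxn1 at 0.019. Nfe2l1 itself was at 0.07 ± 0.09. Among 12 ubiquitin-activating enzymes and ligases, 11 were above 0 with a median of 0.14, and Cul3 (0.33 ± 0.12) and Mdm2 (0.25 ± 0.11) were higher at an unadjusted p under 0.05. Of all genes tested, 48.6% were below 0 and 5.86% were higher at that limit. The median of these enzymes and ligases was 0.073 without vehicle replicate B and 0.23 without vehicle replicate E. It was 0.069 after the correction, with Cul3 at 0.10 and Mdm2 at 0.095.

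Beside the proteasome, 2 other large complexes were read. The COP9 signalosome, whose subunits resemble those of the lid, had 1 lower (Cops9, -0.52 ± 0.14) and 1 higher gene (Cops2, 0.24 ± 0.10) of 10, with a median of 0.01. Of all genes tested, 8.70% were lower and 5.86% higher at an unadjusted p under 0.05. After the correction Cops9 and Cops2 were at -0.034 and 0.010. All 8 subunits of the chaperonin TRiC, which folds actin and tubulin, were above 0 with a median of 0.14, and none had an unadjusted p under 0.05. Their median transcript length was 2175 bases, longer than that of the core and regulatory genes but below the median of 2888 over all genes tested. Their median log2 fold change was 0.02 without vehicle replicate B and 0.39 without vehicle replicate E.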

How the data were processed

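Total RNA from hippocampal synaptoneurosomes was purified with an RNeasy kit and made into libraries with a SMARTer Ultra Low Input kit, per the labels' protocols. The authors deposited estimated counts per gene and per transcript, not scaled to a common total. Salmon 1.5.2 and the build mm10 are named in the submitters' processing notes, and no source used here names the annotation release or says whether counting was stranded. Names, lengths and GC content came from GENCODE M21 (GRCm38), which held 22148 of 22248 gene and 101527 of 102392 transcript identifiers. Many deposited identifiers carry a higher version, so lengths may differ from those used in counting.

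Estimated counts were rounded and tested with edgeR 4.0.16 (quasi-likelihood, TMM scaling, filterByExpr, robust fit, no covariates, limma 3.58.1, R 4.3.3) over all genes, with Benjamini-Hochberg adjustment. Transcripts were tested in the same way. Standard errors are the absolute log2 fold change over the square root of F. TPM used annotated, not effective, lengths. The code was tested on simulated data.

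The members and lists were chosen with earlier results of these data known. Genes named with full values were the catalytic and inducible subunits, Psmc3ip, and for each particle the 3 genes of smallest p per direction, and from each list the gene of smallest p. Alternatives were DESeq2 size factors, total counts, DESeq2 (1.42.0), limma-voom with quality weights, other low-count filters, a replicate block, a GC and length correction (lowess, span 0.3), a non-robust fit, omission of mitochondrially encoded genes, summed transcripts, and omission of each library. Paaf1, though listed, had no entry by that name and was not analysed here, and Skp1 was read under its M21 symbol Skp1a. Some listed ubiquitin genes are not reported here. Near-identical or overlapping genes were searched in the M21 transcripts and exons.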

Additional observations from a re-analysis of the deposited data

Results flagged for a closer look

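In the AM6545 group of 4 libraries, 3 of 41 values checked had 1 library farther from the rest than Dixon's 95% critical value allows, where chance would give about 1 in 20, or 2.05. In each case the library was AM6545 replicate E. Psma1 had 106 CPM there and 129.5 to 131 in the other treated libraries. Psma7 had 146 CPM there and 168 to 171 in the others. Psmd4 had 147 CPM there and 189 to 191 in the others. This library was the lowest of the treated group in 33 of the 34 members left without the inducible subunits and Psmc3ip.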

How the results depend on the processing

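The count of members past the adjusted threshold was 0 to 1 when each library was left out in turn, with Psmd2 called without vehicle replicate E. Leaving out libraries gave 1 to 4 lower and 0 to 6 higher members at an unadjusted p under 0.05, and 1 to 9 with groups apart and AM6545 lower. In the same fits 3.69% to 12.9% of all genes tested were lower and 2.77% to 12.8% higher. The 6 higher members came without vehicle replicate E, the fit with 12.8%. Over all genes, the share with groups apart was taken in the main fit only, so counts apart from other fits cannot be set against it. Groups of fewer libraries also come apart more readily. limma-voom gave 7 higher and 1 lower (Psmc3ip), against 11.9% and 12.2% of all genes tested. There Psmb8 and Psmb10 lost their unadjusted p under 0.05. The GC and length correction gave 0 higher, 1 lower (Psma2) and 0 apart, and with a replicate block added 0, 0 and 0. Over all genes, the correction alone called 2.25% higher and 4.50% lower. Total counts gave 3 members apart and omission of mitochondrially encoded genes 2. The core median moved to 0.053 with the GC and length correction, and core minus regulatory median to -0.047. Over single libraries left out the latter ran from -0.35 to -0.068. DESeq2, either scaling, both filters, the non-robust fit and summed transcripts left the counts of lower and higher members at 2 and 1. The labels do not say whether replicate letters mark a pairing or a batch. Correlations of same-letter deviations were -0.26, -0.15 and -0.22, and those between other letters ran from -0.16 to 0.24. So few pairs cannot settle it. A replicate block gave 2 lower and 0 higher members, against 5.31% and 2.87% of all genes. The cause of these changes was not tested.

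Among the 15 members named by the rule given above, signs turned in fold changes of at most 0.23 in size. With the GC and length correction, without and with the replicate block, they were 0.085 and 0.096 for Psmb5, 0.13 and 0.14 for Psmb6, 0.10 and 0.11 for Psmc5, -0.034 and -0.053 for Psmc6, 0.14 and 0.13 for Psmd4, and 0.043 and 0.039 for Psmd8. With limma-voom they were 0.12 for Psmc5, 0.15 for Psmd4 and 8.5e-05 for Psmd8. With total counts they were 0.033 for Psmc5 and 0.023 for Psmd4, and without the low-count filter 0.0034 for Psmc5. The replicate block gave -0.028 for Psma4. Outside these named members, the GC and length correction also turned the sign of Psma5, Psma6, Psma7, Psmb2, Psmb3, Psmb4, Psmd7, Psmd9 and Psmd10. The largest of these was Psmb3, from -0.19 to 0.13. Over single libraries left out, Psma1 ran from -0.015 (without vehicle D) to 0.12, Psma4 from -0.044 (without vehicle D) to 0.093, Psmb9 from -0.074 (without AM6545 B) to 0.27, Psmc5 from -0.064 to 0.058 (without AM6545 E) and Psmd4 from -0.11 to 0.093 (without vehicle E).

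With 4 and 3 libraries, standard errors of members ran from 0.09 to 0.23 on the log2 scale. Changes of that size were not detectable, and larger ones could go uncalled too. Psmb8 at -0.47 had an adjusted p of 0.236 by edgeR. High counts did not ensure precision, since Psmd2, with a mean of 7939 counts, had a standard error of 0.21. Psmb9, with a mean of 71.7 counts, was the least precise.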
